A study of Mus musculus with 6 samples.

Results

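The genes described here are the plasma membrane and lysosomal carriers that move amino acids across membranes in mouse cells. They were chosen by symbol, from the rows of the count table that belong to the solute carrier families Slc1, Slc3, Slc6, Slc7, Slc36, Slc38 and Slc43 and whose symbol ends in the letter a and a number. The rule gave 52 genes of the 29872 in the table. Of these, 29 had enough counts to be tested and 23 did not. The name of a family does not fix its cargo: several Slc6 genes carry taurine, creatine or neurotransmitters, Slc43a3 is known as a purine nucleobase carrier, and Slc3 genes encode chaperone subunits that carry nothing by themselves.

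The levels come from 6 bulk RNA-seq libraries, of which 3 carry the label CML, for chronic myeloid leukaemia, and 3 the label WT, for wild type. Both groups came from C57BL/6 bone marrow, were untreated and were expanded in culture outside the animal, and both carry the same sort label, Lin-Sca1+cKit+CD150+, a gate for haematopoietic stem cells. The only difference that the labels give is CML against WT. They name no transgene, promoter, age or sex for the CML animals, and they do not say whether replicates were separate animals or cultures. The p-values therefore measure only how far these 6 libraries scatter, and that scatter may be technical. Where single values are given, they follow the order of replicates 1, 2 and 3.

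Library totals ran from 13323552 to 17926866 counts. The gate genes Kit, Ly6a (Sca1) and Slamf1 (CD150) were detected in all 6 libraries. Slamf1 was lower in CML by the test, though its values overlapped between the groups. Marker lists of other cell types were read beside all 16221 tested genes, of which 17.4% passed the threshold given below (10.2% higher and 7.20% lower in CML). Of 11 mast cell and basophil genes 6 were higher in CML and 0 lower, and their summed level was 2074 to 7292 CPM in CML and 184 to 375 CPM in WT. CPM stands for counts scaled to library size, here after TMM scaling. Of 9 tested monocyte and macrophage genes 5 were higher and 0 lower (362 to 429 against 238 to 295 CPM). None of the 8 tested neutrophil genes passed in edgeR or in DESeq2 (1 had an unadjusted p under 0.05), of 6 tested megakaryocyte genes 2 were lower, and of 6 tested erythroid genes 1 was higher and 2 lower. Of 6 tested dendritic cell genes 2 were higher, and of 3 tested lymphoid genes 1 was higher. Tpsab1, Klf1 and Batf3, called higher in the mast cell, erythroid and dendritic lists, had 5, 7 and 4 counts over the WT libraries. They entered the test through their CML libraries alone and could only be called higher. The stem cell list held Kit, Ly6a and Slamf1, and also Cd34, Cd48, Procr, Mecom and Hlf, which the sort label does not name. Of these 8 genes 3 were lower (Slamf1, Cd48 and Hlf). Camp, Hba-a1 and Slc4a1 were at 0 in the WT libraries and had 3, 25 and 3 counts over the CML libraries. The 2 lower erythroid genes, Hbb-bs and Hbb-bt, were at 52.3 and 167 CPM in WT and 13.1 and 35.5 CPM in CML. The part of these cell types in the transporter values was not tested, and a change in the share of a cell type cannot be told apart from a change in RNA per cell in bulk libraries.

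Cells take up amino acids through carriers that differ in cargo and in driving force. Sodium-driven carriers such as Slc38a1 and Slc38a2 load the cell with glutamine and other small neutral amino acids. Exchangers such as Slc7a5 then trade these for large neutral amino acids such as leucine, and they reach the membrane only when bound to the glycoprotein Slc3a2 (the CD98 heavy chain). Amino acid supply is sensed by the mTORC1 complex on the lysosome and by the ATF4 stress pathway, which raises many of these carriers when amino acids run short. In blood-forming cells, glutamine, leucine, arginine and cystine uptake are the best known of these routes.

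Between CML and WT, 13 of the 29 tested transporter genes passed the threshold (edgeR quasi-likelihood test, Benjamini-Hochberg adjusted p under 0.05). Of these, 8 were higher in CML and 5 were lower. In the same fit 17.4% of all 16221 tested genes passed, 10.2% higher and 7.20% lower. The genes that rose were Slc6a12, Slc38a6, Slc6a13, Slc6a8, Slc43a2, Slc7a8, Slc7a4 and Slc36a4, and those that fell were Slc6a15, Slc7a11, Slc7a3, Slc38a1 and Slc7a6. Of the 13 calls 61.5% were higher, and 72.7% with library totals alone in place of TMM. Over all genes the higher share was 58.6%, and 73.8% with library totals alone. The 3 genes with the highest level per kilobase of exon, Slc7a5, Slc38a2 and Slc3a2, did not pass. The log2 fold change was 1 or more in 7 of the 8 that rose, with Slc36a4 just under that, and -1 or less only in Slc6a15 among the 5 that fell. Of the 13 calls, 8 were kept in each alternative that gave a value. The other 5 calls (Slc38a1, Slc7a6, Slc6a8, Slc6a13 and Slc7a8) were lost in some.

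**Figure D1:**
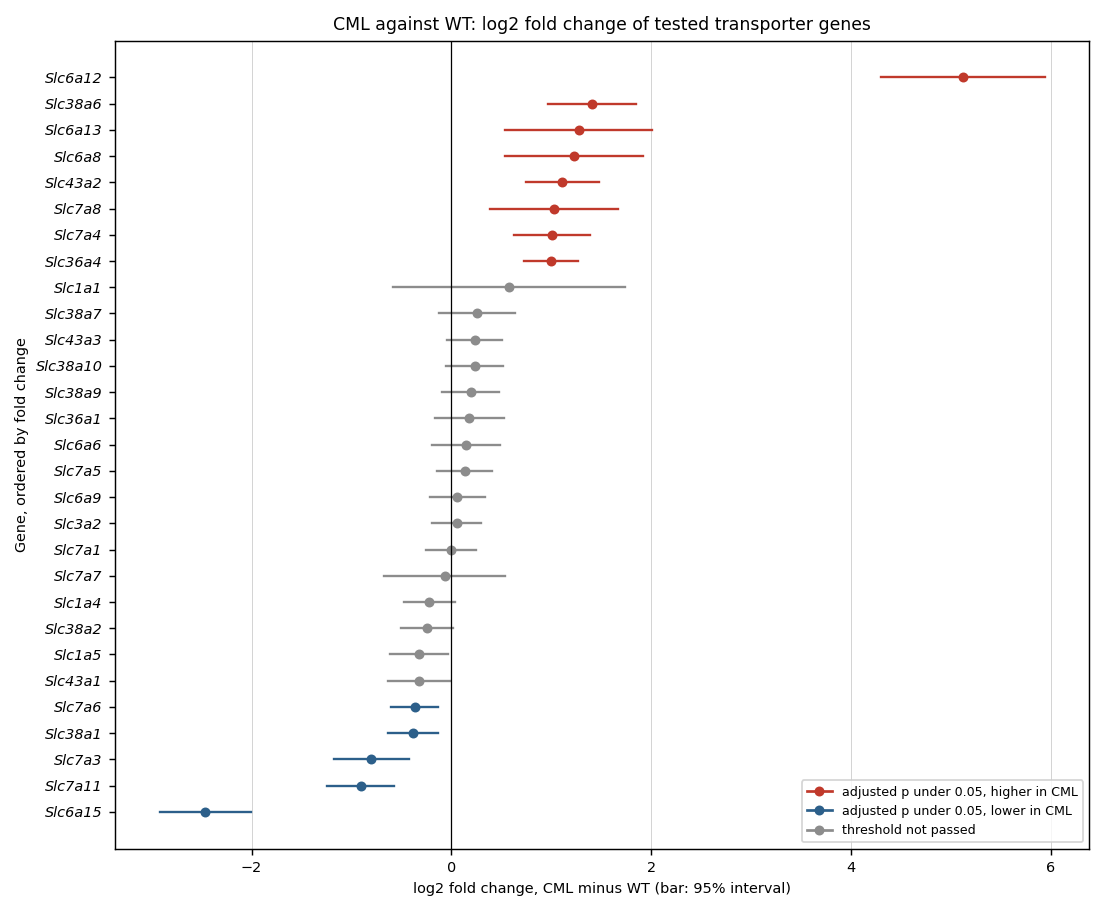
Log2 fold change of CML minus WT for the 29 tested transporter genes (x axis), ordered by size (y axis). Points are edgeR estimates and bars their 95% intervals, red for genes higher in CML, blue for genes lower and grey for genes that did not pass; Slc6a12 lies at 5.12 and Slc6a15 at -2.46, with the other genes between -0.91 and 1.41.

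The Slc7 exchangers that pair with Slc3a2 were compared first. Slc3a2 itself (chr19:8706882-8723369, GRCm38) stood at 234, 243 and 251 CPM in the CML libraries against 232, 212 and 257 CPM in the WT libraries. The groups overlapped, and the log2 fold change was 0.05 (95% interval -0.19 to 0.30, adjusted p = 0.786). Slc7a5, which encodes LAT1, the exchanger for leucine and other large neutral amino acids, stood at 389, 493 and 478 CPM in the CML libraries against 429, 372 and 439 CPM in the WT libraries. These groups also overlapped, with a log2 fold change of 0.13 (95% interval -0.14 to 0.41, adjusted p = 0.515). For both genes the interval leaves out a change of 1 on the log2 scale in either direction.

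Slc7a11 encodes xCT, which takes up cystine in exchange for glutamate and so feeds glutathione synthesis. Its level was 142, 113 and 121 CPM in the CML libraries against 279, 242 and 184 CPM in the WT libraries. Each CML library lay below each WT library, and within WT replicate 3 was the lowest (log2 fold change -0.91 with an SE of 0.15 and adjusted p = 0.00166). The call was kept in all 15 alternatives, with log2 fold changes from -1.06 to -0.77. The gene lies on the minus strand at chr3:49892526-50443614, a span that in GENCODE M21 covers more than 500 kb and exons of 13922 bases in all, so its level per length may be understated.

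Slc7a11 is a textbook target of ATF4, which binds C/EBP-ATF response elements. The window before its start is shown because it holds 2 such motifs, beside that of Slc1a4, another tested carrier with a match. The motif searched was TGATGNAA on both strands, with matches in capitals. Sequences are from RefSeq (GRCm38.p6), 5′ to 3′ on the gene's strand, from 250 bases before to 10 bases after the start. They lie at chr3:50443604-50443863 (minus strand) and chr11:20332704-20332963 (minus strand).
Slc7a11: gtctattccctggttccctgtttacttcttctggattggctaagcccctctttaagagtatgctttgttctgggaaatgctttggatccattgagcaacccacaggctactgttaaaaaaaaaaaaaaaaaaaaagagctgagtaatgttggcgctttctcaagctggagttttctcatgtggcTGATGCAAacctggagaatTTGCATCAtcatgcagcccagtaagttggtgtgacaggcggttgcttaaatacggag
Slc1a4: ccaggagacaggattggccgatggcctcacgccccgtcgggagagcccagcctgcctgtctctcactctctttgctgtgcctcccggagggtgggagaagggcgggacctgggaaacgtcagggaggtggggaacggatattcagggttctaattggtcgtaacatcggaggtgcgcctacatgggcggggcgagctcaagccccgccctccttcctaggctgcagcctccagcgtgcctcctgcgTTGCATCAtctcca
The Slc7a11 matches begin 66 and 47 bases before the start, and that of Slc1a4 begins 4 bases before it and runs across it.

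A start window was found for 37 of the 52 transporter genes (56 windows, as some genes have several). A match to TGATGNAA was present in 5 of these 56 windows and in 3.97% of all 32851 windows of the same length. The 4 genes with a match were Slc7a11, Slc1a4, Slc7a7 and Slc6a21. Like that of Slc7a11, a Slc7a7 window holds more than 1 match, beginning 141 and 1 bases before the start. An overlapping Slc7a7 window shares the second match, so that site is counted in both windows. Of these, Slc7a11 was lower in CML, Slc1a4 and Slc7a7 did not pass, and Slc6a21 had 1 count in all 6 libraries. A match describes the letters only and does not show that a factor binds there.

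The remaining partners of Slc3a2 went in different directions. Slc7a6, which encodes y+LAT2, an exchanger of cationic for neutral amino acids, stood at 123, 112 and 132 CPM in the CML libraries against 155, 159 and 160.5 CPM in the WT libraries. No CML library reached the WT range (log2 fold change -0.37 with an SE of 0.11 and adjusted p = 0.0348). It lost its call with library totals alone (0.113) and without CML replicate 1 (0.0595), 2 (0.171) or 3 (0.0643) or WT replicate 1 (0.0633) or 2 (0.129), with adjusted p 0.00902 to 0.171 over 15 alternatives. Slc7a8 encodes LAT2, a neutral amino acid exchanger. It was at 14.7, 35.5 and 23.2 CPM in the CML libraries against 13.2, 11.4 and 11.3 CPM in the WT libraries. All CML values were above the WT values, and CML replicate 1 was close to WT replicate 1 (log2 fold change 1.03 with an SE of 0.28 and adjusted p = 0.0358). The call was lost with no low-count filter (0.0743), with the replicate block (0.0531) and without CML replicate 2 (0.0530) or 3 (0.0871) or any one of the WT replicates (0.143, 0.133 and 0.128), with adjusted p 3.42e-04 to 0.143 over 15 alternatives. Without CML replicate 2 its log2 fold change was 0.66. The mast cell and basophil list had the same order over the CML libraries, with summed levels of 2074, 7292 and 4583 CPM in replicates 1, 2 and 3. So did the monocyte and macrophage (362, 429 and 373 CPM), dendritic cell (42.1, 88.9 and 76.2 CPM) and erythroid (24.0, 91.4 and 65.7 CPM) sums. The neutrophil, megakaryocyte, lymphoid and stem cell sums had other orders. The order of Slc7a8 was also that of Slc7a5, Slc6a6 and Slc38a10, which did not pass, and of Slc43a2, Slc6a8 and Slc6a12, which rose. The part of these lists in the Slc7a8 value was not tested. Slc7a7, which encodes y+LAT1, was scarce (3.66 ± 1.42 CPM for CML against 3.85 ± 0.180 CPM for WT; SD, n = 3) and did not pass, with a log2 fold change of -0.07 (95% interval -0.68 to 0.54, adjusted p = 0.902). Slc7a10, a further partner, is not analysed here.

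Per kilobase of exon, Slc7a5 was the main partner of Slc3a2 in each library. It made up 71.6%, 76.6% and 74.9% of the summed level of Slc7a5, Slc7a6, Slc7a7, Slc7a8 and Slc7a11 in CML replicates 1, 2 and 3, and 66.8%, 64.3% and 69.5% in the WT replicates. Slc7a11 made up 4.66% to 6.98% in CML and 7.78% to 11.6% in WT. No test of these shares was run. They do not overlap between the groups and, since they sum to a whole, a fall of one partner raises the share of another.

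Among the cationic amino acid carriers, Slc7a1 (CAT1, the main arginine and lysine carrier of many cells) did not pass. It stood at 183, 196 and 218 CPM in the CML libraries against 192, 191 and 217 CPM in the WT libraries, with a log2 fold change of -0.01 (95% interval -0.26 to 0.24, adjusted p = 0.979). Slc7a3 (CAT3, an arginine and lysine carrier best known from brain, on the X chromosome at chrX:101079210-101086020) fell. Its values were 50.1, 28.9 and 43.8 CPM in the CML libraries against 73.7, 71.1 and 69.4 CPM in the WT libraries. The WT libraries were close together and each CML library lay below them (log2 fold change -0.80 with an SE of 0.17 and adjusted p = 0.00769; called in all 15 alternatives). Slc7a4, related in sequence to these carriers but not shown to carry cationic amino acids by itself, rose, with 11.4, 10.7 and 11.1 CPM in the CML libraries against 4.96, 5.81 and 5.73 CPM in the WT libraries. Each group was tight and the groups did not overlap (log2 fold change 1.01 with an SE of 0.18 and adjusted p = 0.00179; called in all 15 alternatives).

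Slc7a2 (CAT2, the arginine carrier linked to activated macrophages) is named here after its values were seen, because it fell below the low-count filter. It had 7, 72 and 40 counts in CML replicates 1, 2 and 3 and 3, 2 and 1 in the WT replicates. Over the summed counts, 119 against 6, the ratio of scaled counts was 21.1 (exact 95% binomial interval 9.43 to 58.8, counting error only). With no filter edgeR gave 4.34 on the log2 scale (adjusted p = 0.0632), DESeq2 gave 4.44 (adjusted p = 9.59e-06), and without CML replicate 1 the gene entered the test at 4.88 (adjusted p = 2.84e-05). CML replicate 1 was near the WT libraries. The order of the CML libraries was again that of the mast cell and basophil, monocyte and macrophage, dendritic cell and erythroid sums. Slc7a8 and other transporter genes shared it, as given above, and the part of these lists in the Slc7a2 value was not tested.

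The Slc38 family holds sodium-coupled neutral amino acid carriers of the plasma membrane and the lysosome. Slc38a2 (SNAT2, a glutamine and alanine carrier that rises in amino acid shortage) had the highest CPM of all transporter genes in each library, at 638, 683 and 766 CPM in the CML libraries against 847, 817 and 810.03 CPM in the WT libraries. Each CML library lay below each WT library, but the difference did not pass, at -0.25 (95% interval -0.51 to 0.01, adjusted p = 0.181). Slc38a1 (SNAT1, a glutamine carrier) stood at 264, 262 and 316 CPM in the CML libraries against 374, 364 and 361 CPM in the WT libraries. These groups did not overlap either, and Slc38a1 passed (log2 fold change -0.38 with an SE of 0.12 and adjusted p = 0.0373). Its call was lost with library totals alone (0.0982) and without CML replicate 1 (0.0924) or 2 (0.165) or WT replicate 1 (0.0888) or 2 (0.115), with adjusted p 0.00621 to 0.165 over 15 alternatives.

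Slc38a6 (SNAT6, whose cargo is less well known) rose from a low level. It was at 8.66, 11.7 and 12.5 CPM in the CML libraries against 4.0, 4.42 and 3.92 CPM in the WT libraries. The lowest CML value was above the highest WT value by far more than the spread within WT (log2 fold change 1.41 with an SE of 0.20 and adjusted p = 4.80e-04; called in all 15 alternatives). The lysosomal members Slc38a7 and Slc38a9 did not pass. Slc38a7, which exports glutamine and asparagine from lysosomes, had a log2 fold change of 0.26 (95% interval -0.12 to 0.63, adjusted p = 0.351). Slc38a9, the lysosomal arginine sensor of mTORC1, had 0.20 (95% interval -0.09 to 0.48, adjusted p = 0.343). Slc38a10, which is not counted here as lysosomal, also did not pass, at 0.23 (95% interval -0.05 to 0.52, adjusted p = 0.250). The values of these 3 genes overlapped between the groups, at 50.9 ± 3.53 CPM for CML against 44.4 ± 6.33 CPM for WT for Slc38a9 (SD, n = 3).

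In the Slc1 family, Slc1a5 (ASCT2, a glutamine carrier) stood at 88.6, 96.4 and 125 CPM in the CML libraries against 125, 127 and 137 CPM in the WT libraries. CML replicate 3 came within 1 CPM of WT replicate 1, and the other CML libraries lay lower. The log2 fold change was -0.32 (95% interval -0.61 to -0.04, adjusted p = 0.114), and it passed only without CML replicate 3, at -0.49 (adjusted p = 0.0377; adjusted p 0.0377 to 0.305 over 15 alternatives). Slc1a4 (ASCT1, a carrier of alanine, serine and cysteine), whose start window is printed above, stood at 121, 106 and 123 CPM in the CML libraries against 133, 125 and 151 CPM in the WT libraries. The groups did not overlap, and the difference did not pass at -0.22 (95% interval -0.48 to 0.03, adjusted p = 0.217). Slc1a1, a glutamate carrier, was at 1.44 ± 0.632 CPM for CML against 0.970 ± 0.778 CPM for WT (SD, n = 3), with overlapping groups. Its log2 fold change was 0.58 (95% interval -0.58 to 1.74, adjusted p = 0.497), and it ran from 0.22 without CML replicate 3 to 1.46 without WT replicate 3 (adjusted p = 0.861 and 0.0655). The other 4 Slc1 genes were too low to test.

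**Figure D2:**
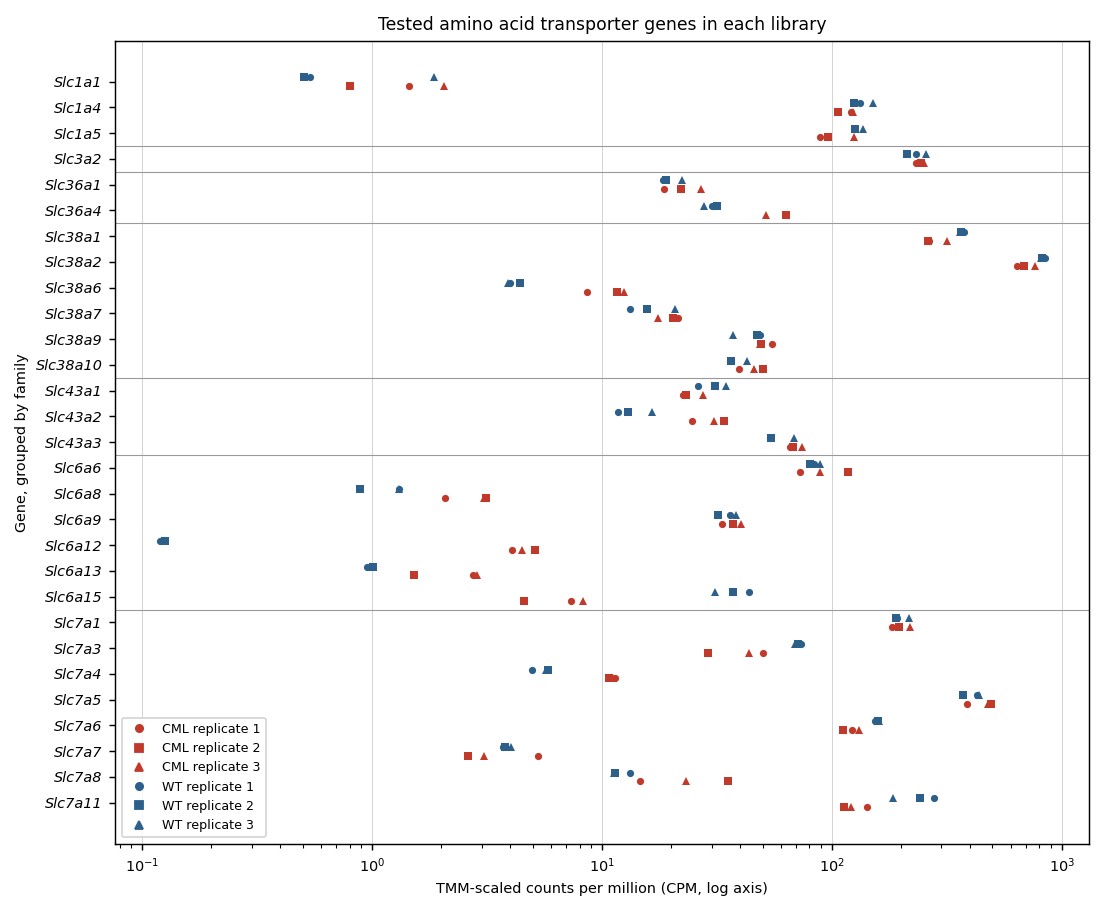
TMM-scaled CPM (x axis, log scale) of the 29 tested transporter genes (y axis), grouped by family with grey lines between families. Each point is 1 library, red for CML and blue for WT, with circle, square and triangle for replicates 1, 2 and 3; the genes with a clear gap between red and blue include Slc6a12, Slc6a15, Slc38a6 and Slc36a4.

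The Slc6 family carries neurotransmitters, taurine, creatine, glycine and neutral amino acids, and it held both the largest rise and the largest fall. Slc6a15 (B0AT2, a sodium-driven carrier of proline and branched-chain amino acids, chr10:103367783-103419377) fell. It was at 7.34, 4.60 and 8.26 CPM in the CML libraries against 43.7, 37.4 and 31.1 CPM in the WT libraries. The highest CML value was far under the lowest WT value (log2 fold change -2.46 with an SE of 0.21 and adjusted p = 1.22e-05; called in all 15 alternatives, from -2.64 to -2.26). CML replicate 2 had the highest CML sums of the mast cell and basophil, monocyte and macrophage, dendritic cell, erythroid and stem cell lists. Among the CML libraries it also had the lowest values of Slc6a15, Slc7a3, Slc7a11, Slc7a6 and Slc38a1, which fell. Of the genes that rose, Slc6a13 and Slc7a4 were lowest in the same CML library. Slc6a12, Slc7a8, Slc43a2 and Slc6a8 were highest in it, and Slc38a6 and Slc36a4 lay between. The part of these lists in these values was not tested.

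Slc6a12 (BGT1, a carrier of betaine and GABA, chr6:121343076-121365775) rose from near 0. It had 65, 70 and 72 counts in CML replicates 1, 2 and 3 and 2 counts in each WT library. This corresponds to 4.56 ± 0.516 CPM for CML against 0.123 ± 0.00353 CPM for WT (SD, n = 3), so the gene entered the test through its CML libraries alone and could only be called higher (log2 fold change 5.12 with an SE of 0.38 and adjusted p = 1.94e-06). The ratio of summed scaled counts was 36.8 (exact 95% binomial interval 16.6 to 101, counting error only). Slc6a13 (GAT2, a carrier of GABA and taurine) lies 5342 bases before Slc6a12 on the same strand of chromosome 6. It stood at 2.76, 1.53 and 2.88 CPM in the CML libraries against 0.956, 1.01 and 0.997 CPM in the WT libraries. It also rose (log2 fold change 1.28 with an SE of 0.34 and adjusted p = 0.0214), though without CML replicate 1 (0.0543) or 3 (0.0973) or WT replicate 1 (0.0661) or 2 (0.0776) it missed the threshold, with adjusted p 0.00977 to 0.0973 over 14 alternatives.

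Slc6a8, the creatine carrier, was low in both groups and rose, with 2.07, 3.14 and 3.07 CPM in the CML libraries against 1.31, 0.884 and 1.31 CPM in the WT libraries. The groups did not overlap (log2 fold change 1.23 with an SE of 0.32 and adjusted p = 0.0190), and the call was lost without CML replicate 2 (0.0647) or 3 (0.0741) or WT replicate 2 (0.10), with adjusted p 0.0103 to 0.10 over 14 alternatives. The 2 abundant Slc6 genes did not pass. Slc6a6, the taurine carrier, stood at 72.9, 118 and 88.9 CPM in the CML libraries against 83.6, 80.7 and 88.7 CPM in the WT libraries. CML replicate 2 was the highest and CML replicate 1 the lowest of the 6, and the log2 fold change was 0.14 (95% interval -0.19 to 0.48, adjusted p = 0.568). Slc6a9 (GLYT1, the glycine carrier that serves haem synthesis in red cell precursors) was at 36.9 ± 3.49 CPM for CML against 35.4 ± 3.21 CPM for WT (SD, n = 3), and its log2 fold change was 0.06 (95% interval -0.21 to 0.33, adjusted p = 0.791).

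The proton-coupled Slc36 carriers work largely on lysosomes and endosomes. Slc36a4 (PAT4, a carrier of proline and tryptophan, chr9:15709738-15743361) rose. It stood at 63.5, 63.4 and 52.0 CPM in the CML libraries against 30.05, 31.8 and 27.8 CPM in the WT libraries, and the lowest CML library was well above the highest WT library (log2 fold change 1.00 with an SE of 0.13 and adjusted p = 1.77e-04; called in all 15 alternatives). Slc36a1 (PAT1, which exports small amino acids from lysosomes) overlapped between the groups at 22.6 ± 4.13 CPM for CML against 19.96 ± 2.14 CPM for WT (SD, n = 3), and its log2 fold change was 0.18 (95% interval -0.17 to 0.52, adjusted p = 0.486). The difference between the fold changes of these related genes was not tested.

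Slc43a1 and Slc43a2 move branched-chain and some other neutral amino acids down their gradient. Slc43a2 (LAT4, a carrier of leucine, phenylalanine and methionine) rose, with 24.7, 33.8 and 30.8 CPM in the CML libraries against 11.7, 13 and 16.6 CPM in the WT libraries. Each group had some spread but they did not overlap (log2 fold change 1.11 with an SE of 0.17 and adjusted p = 6.99e-04; called in all 15 alternatives). Slc43a1 (LAT3, with a like cargo) did not pass, at 24.4 ± 2.59 CPM for CML against 30.7 ± 4.28 CPM for WT (SD, n = 3) and -0.33 (95% interval -0.64 to -0.02, adjusted p = 0.135). Slc43a3 stood at 69.3 ± 4.52 CPM for CML against 58.9 ± 8.17 CPM for WT and did not pass, at 0.23 (95% interval -0.04 to 0.51, adjusted p = 0.228). It passed only without WT replicate 3, at 0.35 (adjusted p = 0.0339; 0.0339 to 0.547 over 15 alternatives).

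Taken by family, calls went both ways in Slc6 (3 higher and 1 lower of 6 tested), Slc7 (2 and 3 of 8) and Slc38 (1 and 1 of 6). Slc36 had 1 higher of 2 and Slc43 1 higher of 3, with 0 lower in each. Slc1 had 0 of 3 and Slc3 0 of 1 in edgeR and in DESeq2, and at an unadjusted p under 0.05 there was 1 lower gene in Slc1 and 0 in Slc3. Medians of the log2 fold change over tested genes were 0.69 in Slc6, 0.59 in Slc36, 0.23 in Slc43, 0.21 in Slc38, 0.05 in Slc3 and -0.22 in Slc1. The Slc6 calls and median include Slc6a12, which entered the test through its CML libraries alone and could only be called higher. In Slc7 the median was -0.04, which turned to 0.06 with library totals alone, to 0.04 without CML replicate 2 and to 0.01 without WT replicate 3. The Slc3 value turned to -0.02 without WT replicate 2. The Slc1 value was -0.13 with library totals alone and -0.15 without WT replicate 3, and the Slc43 value was 0.35 without WT replicate 3. Over all 29 tested transporter genes the median was 0.14, which became 0.24 with library totals alone and 0.092 without CML replicate 3. Over all tested genes it was -0.004. With TMM scaling, groups did not overlap for 16 of the 29, 8 above and 8 below. The same held for 35.0% of all tested genes (18.5% above and 16.5% below). Overlap of single genes was not examined with library totals alone.

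Levels were also summed per family, as CPM not divided by exon length, so that long genes weigh more in a sum. The Slc36 sum was 82.2, 85.5 and 79.0 CPM in CML replicates 1, 2 and 3 and 48.6, 50.8 and 50.3 CPM in the WT replicates, without overlap. The Slc38 sum was 1104 ± 93.1 CPM for CML against 1295 ± 25.6 CPM for WT (SD, n = 3), and the Slc7 sum 983 ± 58.3 and 1099.5 ± 47.0 CPM. Neither of these overlapped with TMM scaling, and both did with library totals alone. Sums in Slc6 (149 ± 24.1 and 161 ± 6.65 CPM), Slc3 (243 ± 8.96 and 234 ± 22.9 CPM) and Slc43 (123 ± 9.79 and 103 ± 14.6 CPM) overlapped. The Slc1 sum was 222 ± 25.3 CPM in CML and 267 ± 19.8 CPM in WT, which did not overlap with TMM scaling and did with library totals alone. All 52 genes together made up 2710 to 3106 CPM in CML and 3110 to 3272 CPM in WT. With library totals alone the ranges overlapped, at 2805 to 3226 and 2970 to 3279 CPM.

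**Figure D3:**
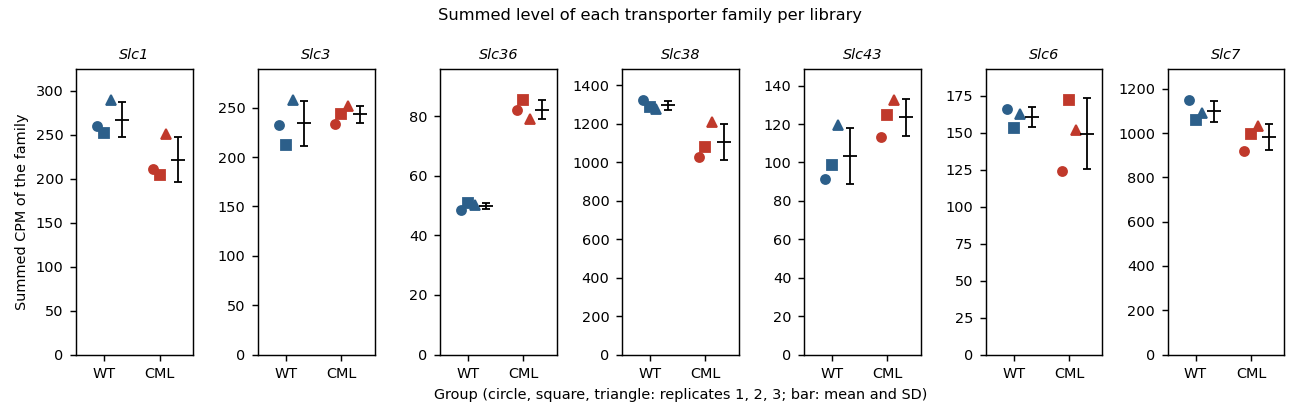
Summed CPM (y axes from 0, 1 panel per family) of all transporter genes of a family in each library. Blue points are WT and red points CML, with circle, square and triangle for replicates 1, 2 and 3 and black bars for the mean and SD; in the Slc36 panel CML lies at 79.0 to 85.5 CPM and WT at 48.6 to 50.8 CPM, without overlap.

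Levels between genes were compared as CPM per kilobase of exon. In both groups the order began with Slc7a5 (122 and 111 in CML and WT), Slc38a2 (78.7 and 93.3), Slc3a2 (68.8 and 66.2), Slc1a4 (29.7 and 34.7), Slc7a6 (26.8 and 34.6) and Slc1a5 (24.8 and 31.0). In WT the range of mean ± SD of Slc1a4 overlaps those of Slc7a6 and Slc1a5, so its place among them is not firm. In CML the ranges of Slc7a6 and Slc1a5 also overlap, and so do those of Slc1a4 and Slc7a6. Slc6a15 moved from place 16 in WT to 26 in CML and Slc36a4 from 17 to 12, while Slc6a12, the gene with the largest fold change, reached only 1.5 and 0.0404 CPM per kilobase. Among the genes at 30 or more CPM per kilobase in WT, Slc7a6 was the only one that passed.

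Some transporter genes are neighbours in the genome, within 100 kb of each other. Slc6a13 and Slc6a12 both rose. Slc38a1 and Slc38a2 lie 44478 bases apart on chromosome 15. With TMM scaling both were lower in each CML library than in each WT library, and Slc38a1 alone passed. Slc43a1 and Slc43a3, 72984 bases apart on chromosome 2, had log2 fold changes of -0.33 and 0.23 and did not pass. Whether reads were shared between neighbours was not tested.

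Apart from Slc7a2, the 23 genes below the filter had at most 38 counts over the 3 libraries of either group. In 14 of them neither group reached more than 9 counts over its 3 libraries, and Slc1a6 was at 0 in all 6. These include Slc38a3 and Slc38a5, known as glutamine carriers of liver and other tissues, Slc6a3, the dopamine transporter, and Slc6a5, the glycine transporter of neurons. Slc6a19 (B0AT1, the neutral amino acid carrier of gut and kidney) had 7, 22 and 9 counts in CML and 0, 3 and 6 in WT, a ratio of 4.5 (exact 95% binomial interval 2.14 to 10.6) that passed neither with no filter in edgeR (adjusted p = 0.0548) nor in DESeq2 (adjusted p = 0.104). Slc3a1, the partner subunit of the kidney cystine carrier, had 21 counts in CML and 17 in WT. For Slc7a2 the result depended on the setting, as given above.

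Genes that sense, make or use amino acids were then read from the same fit, in lists chosen for their function. The counts of each list stand beside the 17.4% of all tested genes that passed (10.2% higher and 7.20% lower), and nothing particular to a list is read from them. Of 23 tested genes of the ATF4 amino acid response, 0 were higher and 2 lower in edgeR and in DESeq2 (median log2 fold change 0.06). At an unadjusted edgeR p under 0.05, 3 were higher and 3 lower. Psat1, an enzyme of serine synthesis, fell by 0.56 from 756 ± 35.0 CPM in WT (SD, n = 3), and Pycr1, an enzyme of proline synthesis, fell by 0.70 (adjusted p = 0.00594 and 0.0168). The Pycr1 call was lost without CML replicate 2 (log2 fold change -0.52). Atf4 itself and Asns did not pass.

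Of 32 mTORC1 sensing genes, 5 were higher and 2 lower (median 0.14). Among the 5, Rragd had 19 counts over the WT libraries, entered the test through its CML libraries alone and could only be called higher. Castor1 and Castor2, which encode arginine sensors or their partner, rose by 1.76 and 1.67 on the log2 scale to 19.0 ± 4.09 and 7.42 ± 1.32 CPM (adjusted p = 0.00153 and 5.84e-04). Wdr59, a subunit of the GATOR2 complex, rose by 0.70. Seh1l, a nuclear pore protein that also belongs to GATOR2, fell by 0.54, and Rragb, a Rag GTPase, fell by 0.52 (adjusted p = 0.0477). The Seh1l call was lost without CML replicate 3 or WT replicate 2 (adjusted p = 0.0599 and 0.0607), and that of Rragb in 8 of 15 alternatives.

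Of 14 tested cystine and glutathione genes, 1 was higher and 0 lower in edgeR and in DESeq2 (median 0.11), with 2 higher and 1 lower at an unadjusted edgeR p under 0.05. That gene was Ggt5, which splits glutathione conjugates and leukotrienes outside the cell (47.3 ± 6.61 CPM for CML against 14.7 ± 4.69 CPM for WT; log2 fold change 1.68 with an SE of 0.21 and adjusted p = 3.37e-04). In the glutamine, glutamate and aspartate list, Aldh4a1, an enzyme of proline breakdown, rose by 0.84 on the log2 scale (adjusted p = 0.00785). This gene does not stand for its list, whose other genes are not reported here.

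In the branched-chain list, 2 of 14 were higher and 2 lower (median 0.16). Bcat1, the cytosolic aminotransferase that acts on leucine, isoleucine and valine, fell from 80.7 ± 4.11 CPM in WT to 39.7 ± 7.98 CPM in CML (log2 fold change -1.02 with an SE of 0.14 and adjusted p = 3.75e-04). Dld, a subunit shared by several dehydrogenase complexes, fell by 0.57. Ppm1k, the phosphatase that switches on branched-chain breakdown, rose by 0.98, and Ivd, an enzyme of leucine breakdown, by 0.49. Ivd missed the threshold without CML replicate 1 or 3 or WT replicate 1 or 2 (adjusted p = 0.0512, 0.0585, 0.0892 and 0.0709), and Dld without WT replicate 2 (0.0545).

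Of 13 tested arginine, proline and polyamine genes, 4 were higher and 3 lower (median 0.11). Azin2, an inhibitor of ornithine decarboxylase antizyme, had the largest change, at 64.7 ± 10.01 CPM for CML against 1.65 ± 0.838 CPM for WT (log2 fold change 5.29 with an SE of 0.27 and adjusted p = 6.02e-07). Ass1, which makes argininosuccinate on the way to arginine, rose by 1.44 and Oaz2, an antizyme, by 0.49. Sat1, which starts polyamine breakdown and export, rose by 0.49 (adjusted p = 0.0233), a call that was not followed through the alternatives. The 3 that fell were Srm, which makes spermidine (by 0.62), Sms, which makes spermine (by 0.61), and Amd1, which makes their aminopropyl donor (by 0.61; adjusted p = 0.00240, 0.00494 and 0.00609). Odc1, the first enzyme of polyamine synthesis, did not pass, at -0.19 (95% interval -0.43 to 0.05, adjusted p = 0.256). Oaz2 missed the threshold without CML replicate 2 or WT replicate 1 or 2 (0.0652, 0.0822 and 0.0846).

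Among amino acid carriers of other families, 4 of 19 tested were higher and 2 lower (median 0.06). Slc15a3, a lysosomal carrier of histidine and small peptides, rose from 1.44 ± 0.565 to 23.0 ± 4.28 CPM (log2 fold change 3.99 with an SE of 0.26 and adjusted p = 5.80e-07). Ctns, which exports cystine from lysosomes, rose by 1.08 and Slc25a12, a mitochondrial carrier of aspartate and glutamate, by 0.62. Slc25a15, the mitochondrial ornithine carrier, fell by 0.75, and Sfxn1, a mitochondrial serine carrier, by 0.58. Of 9 tested accessory proteins 1 was higher and 1 lower (median 0.11). Cd44, whose variant forms stabilise xCT, rose by 0.60 to 513 ± 18.5 CPM. DESeq2 called 1 higher and 2 lower. Emb, a chaperone of monocarboxylate carriers, fell by 1.13, a call lost with no low-count filter or without any one WT replicate (adjusted p = 0.0564, 0.0992, 0.0570 and 0.0680).

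**Figure D4:**
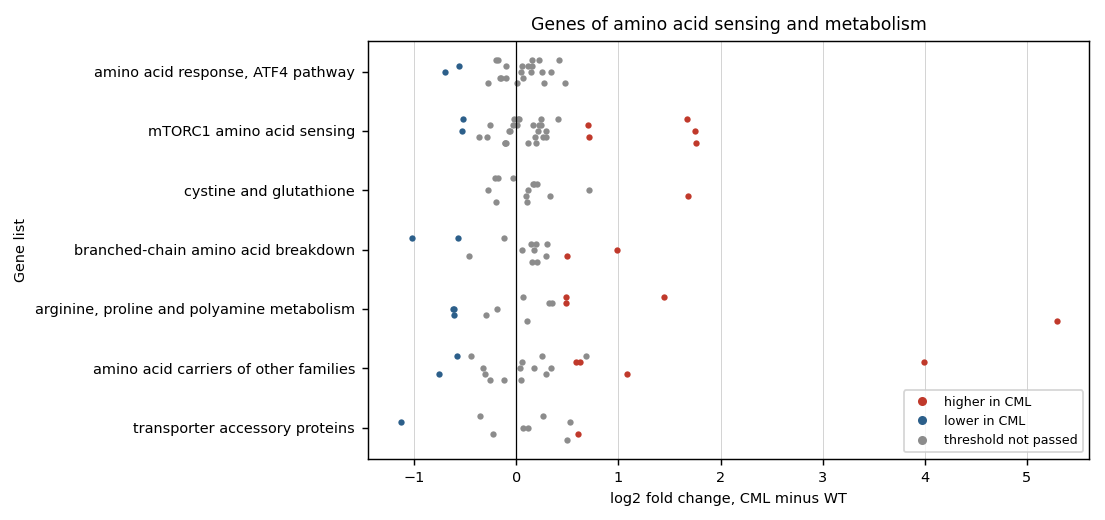
Log2 fold change of CML minus WT (x axis) for tested genes of 7 lists of amino acid sensing and metabolism (y axis). Each point is 1 gene, red if higher in CML, blue if lower and grey if the threshold was not passed; vertical offsets within a list carry no meaning, and Azin2 (5.29) and Slc15a3 (3.99) lie farthest right.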

How the data were processed

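The authors deposited 1 table of estimated counts per gene, 1 column per library, not scaled to a common total; per the file headers and values, 35.0% to 36.9% of entries of a library were not whole. Per the submitters' processing notes, STAR 2.7.3a, Partek 8.0 and mm10 were used, with no role or order given. The sources used here do not give the annotation, the strand setting or how shared reads were divided. Counts were rounded and filtered with filterByExpr (minimum count 10), which left 16221 genes. The test was the two-sided quasi-likelihood F test of edgeR 4.0.16 (R 4.3.3) with TMM scaling, robust dispersion and group as the only term, with adjustment over all tested genes. SEs came from the fold change and F statistic. Coordinates and exon lengths are from GENCODE M21 (GRCm38) by symbol, which matched 52 of the 52 transporter genes. Intervals on summed counts cover counting error only, since reads carried no molecular identifiers. The pipeline was tested on simulated data.

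Alternatives were DESeq2 1.42.0, limma-voom (limma 3.58.1), other scalings and filters, thinning, a replicate block and leaving out each library. 1 gene that fits the symbol pattern is not reported here. The transporter genes and lists were chosen with earlier results of these data known. Genes named are those past the threshold, those at 20 CPM or more in either group, the Slc3a2 partners, and up to 3 called genes per direction of each list; others (such as Slc1a1, Slc38a7, Odc1, Sat1, Slc7a2 and Slc6a19) were chosen after their values were seen. The glutamine, glutamate and aspartate list is not reported in full here.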

Additional observations from a re-analysis of the deposited data

How the results depend on the processing

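Over 15 alternatives, the 8 transporter genes called higher became 5 when only genes averaging 50 counts or more were tested (Slc6a8, Slc6a12 and Slc6a13 then go untested), 9 with DESeq2, which adds Slc7a2, and 5 to 8 when 1 library was left out (5 without CML replicate 3 or WT replicate 2). The 5 lower calls became 3 with library totals alone and 3 to 5 when 1 library was left out (3 without CML replicate 1 or 2 or WT replicate 1 or 2). All genes higher (1652) ranged from 1011 without WT replicate 2 to 2021 when 1 library was left out. All genes lower (1168) numbered 732 with library totals alone and ranged from 455 to 2101 when 1 library was left out, with 455 without WT replicate 2, 569 without CML replicate 3, 675 without CML replicate 2, 688 without WT replicate 1 and 2101 without WT replicate 3. Of the fits of single called genes, 167 kept the call, 25 lost it and 0 changed sign. Signs changed in 12 fits, all of genes that had not passed. The log2 fold change of Slc7a1 was 0.089 with library totals alone and 0.0095 with the stricter filter, and that of Slc7a7 was 0.029 with library totals alone. Leaving out 1 library gave -0.078 to 0.052 for Slc7a1, -0.43 to 0.12 for Slc7a7, -0.016 to 0.13 for Slc3a2, -0.060 to 0.29 for Slc6a6 and -0.015 to 0.12 for Slc6a9. The cause was not tested.

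The fit with the replicate block gave 7 higher and 5 lower transporter genes, with Slc7a8 lost. Same-numbered CML and WT libraries did not deviate together (correlations of -0.021, -0.052 and 0.0087). With 3 libraries per group this cannot show whether the numbers mark pairs, and the labels do not say. For 14 of the 23 untested genes, neither group held more than 9 counts, which limits what this depth can show.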
